A study of Mus musculus with 6 samples.

Results

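M-opsin dominant cones are the daylight photoreceptors of the mouse retina in which transcripts of Opn1mw, the middle-wavelength opsin, equal or outnumber those of Opn1sw, the short-wavelength opsin. They were chosen from counts of unique molecular identifiers (UMIs, each standing for 1 captured transcript) in single cells with 500 to 5000 detected genes and at most 20% of UMIs from mitochondrial genes. A member had at least 3 of the 6 cone genes Arr3, Pde6c, Gnat2, Gngt2, Pde6h and Kcne2, at least 1 UMI of Opn1mw, and no fewer UMIs of Opn1mw than of Opn1sw. The rule found 1220 members among 38569 cells kept, and 1279 cells met the same cone rule with more Opn1sw than Opn1mw (S-opsin dominant cones). The study compared retinas of mice with oxygen-induced retinopathy (OIR), in which pups breathed 75% oxygen from postnatal day (P) 7 to P12 and then room air for 5 days, with retinas of mice kept in room air throughout (Ctrl). Each group had 3 samples taken at P17, each a pool from 2 mice, and no strain or allele is named for them in the labels. The 6 libraries held 37872383, 24615436 and 25061712 UMIs for OIR 1 to 3, and 42606878, 19702233 and 15788524 for Ctrl 1 to 3. In that order the members numbered 272, 81 and 71, and 647, 96 and 53.

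Most mouse cones make both opsins, in proportions that change from the dorsal to the ventral retina. Thyroid hormone receptor beta (Thrb) is needed for Opn1mw, and its partner retinoid X receptor gamma (Rxrg) for keeping Opn1sw low in dorsal cones. Light absorbed by the opsin activates cone transducin (Gnat2 is its alpha subunit), which turns on the cone phosphodiesterase (Pde6c, with the inhibitory subunit Pde6h), and cone arrestin (Arr3) ends the signal. In OIR high oxygen stops the growing retinal vessels, and the return to room air leaves the inner retina short of oxygen.

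The label was checked against Opn1mw itself. Of the 1220 members, 237 carried a single Opn1mw UMI, 68 carried 2 to 4 and 33 carried 5 to 9, whereas 459 carried 80 to 159 and 276 carried 40 to 79. Members with 1 UMI had a median of 3 cone genes, 1 UMI of Pde6h and 0 of Arr3. Members with 80 to 159 had medians of 6 cone genes, 107 UMIs of Pde6h and 15 of Arr3. Members with 5 to 9 Opn1mw UMIs lay between, with medians of 5 cone genes, 10 UMIs of Pde6h and 3 of Arr3 at 2348 UMIs per cell. The single-UMI members thus met the rule with little of the other cone markers, and they were unevenly spread over samples. Single-UMI members made up 35.3% of OIR 1 and 18.4% of Ctrl 1, against 4.94% and 14.1% of OIR 2 and 3, and 4.17% and 7.55% of Ctrl 2 and 3. Opn1mw UMIs were also present in cells called rods by markers (at least 3 of Gnat1, Pde6a, Pde6b, Nrl, Nr2e3 and Cnga1, and at most 1 cone gene). At least 1 Opn1mw UMI was found in 14.6% of rods of OIR 1 and 18.9% of Ctrl 1, and in 2.86%, 1.58%, 1.64% and 1.07% of rods of OIR 2, OIR 3, Ctrl 2 and Ctrl 3. Over all samples the median rod held 1943 UMIs and the median member 7510.5. The median rod held 3381 UMIs in OIR 1 and 3018 in Ctrl 1, with a median of 0 Opn1mw UMIs in each. Single-UMI members of all samples had a median of 6554 UMIs. Exactly 1 Opn1mw UMI was found in 13.5% of rods of OIR 1 and 16.5% of rods of Ctrl 1. A single Opn1mw UMI in the replicate 1 libraries was thus not limited to members. The origin of the single UMIs was not tested. Results are given for all 1220 members and for the 882 core members with at least 10 Opn1mw UMIs, a limit chosen after these counts were seen. All 6 cone genes were detected in 88.5% of core members and in 3.85% of the other 338. The core counts were 148, 68 and 50 in OIR and 482, 90 and 44 in Ctrl.

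**Figure D1:**
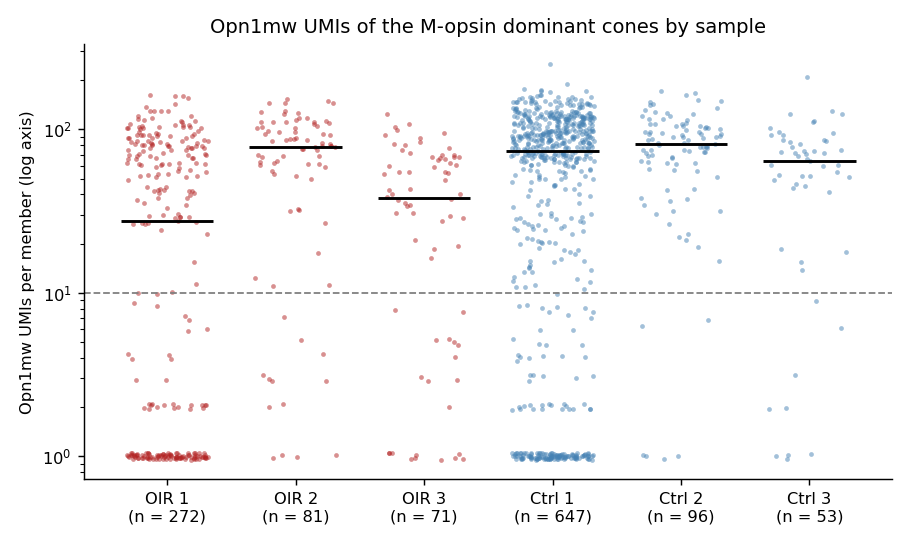
Opn1mw UMIs per member on a log axis, 1 point for each of the 1220 M-opsin dominant cones (jittered slightly), by sample, with OIR in red, Ctrl in blue and the sample's median as a black bar. The dashed line marks 10 UMIs, the limit of the core members, and the points at 1 UMI are crowded in OIR 1 and Ctrl 1.

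Cells at the edges of the rule had few cone transcripts. The 57 members with equal UMIs of the opsins had medians of 1 Opn1mw and 1 Opn1sw UMI, 1 Pde6h UMI, 0 Arr3 UMIs and 3 cone genes. The 17 cells left out for 1 Opn1mw UMI too few had somewhat more, with medians of 1, 2, 3 and 1 UMIs in that order and 4 cone genes. The 240 members with exactly 3 cone genes and the 600 cells left out with 2 had the same medians of 1 UMI for Opn1mw, 1 for Pde6h and 0 for Arr3.

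The replicate 1 libraries stood apart in other ways. Summed over 12 bipolar cell markers, all members held 5055, 748 and 1130 counts per 1000000 UMIs (CPM) in OIR and 3055, 211 and 122 CPM in Ctrl, with Pcp2 the most abundant. Core members held 666, 164 and 187 CPM in OIR and 826, 119 and 129 CPM in Ctrl. The sum over 12 Mueller glia markers was 4268, 1565 and 1194 CPM in OIR and 2553, 700.1 and 716 CPM in Ctrl for all members, led by Apoe, and 1312, 804 and 543 CPM against 1732, 707 and 638 CPM for core members, led by Clu. The replicate 1 sums of bipolar markers were thus several times lower in the core. Over all members the OIR and Ctrl values overlapped for both lists, but each OIR sample was above the Ctrl sample of its number, and 11 of 11 bipolar and 11 of 12 Mueller glia markers tested had a positive log2 fold change between OIR and Ctrl (medians of 0.86 and 0.65). In the core the order of OIR and Ctrl within a number varied for both lists. None of the bipolar or Mueller glia markers was at 0 over the 6 samples. The 11 microglia and leukocyte markers summed to 1016, 11.9 and 20.9 CPM in OIR and 193, 28.3 and 54 CPM in Ctrl for all members, with S100a9 at 0, and to no more than 69.9 CPM in any sample of the core, where Ptprc was also at 0. The 9 endothelial markers, led by Flt1, summed to at most 187 CPM in a sample of all members and 67.1 CPM in the core, each time in Ctrl 1. Rod markers were abundant in every sample, with sums of 16362, 20299 and 15161 CPM in core members of OIR and 18433, 24505 and 21405 CPM in Ctrl, led by Sag. Xist, which marks female cells, was at 0 in OIR 1 to 3 and Ctrl 1 and at 1673 and 1639 CPM in Ctrl 2 and 3, where the Y-linked genes Ddx3y, Uty, Kdm5d and Eif2s3y were at 0. No OIR pool was female, so sex and group were partly confounded. The labels call the tissue endothelial cells, but Cldn5, a tight-junction gene of endothelium, had a UMI in 1.15% of cells kept and in 2.13% of members. The libraries shared few barcodes, at most 0.372% of the smaller library of a pair.

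**Figure D2:**
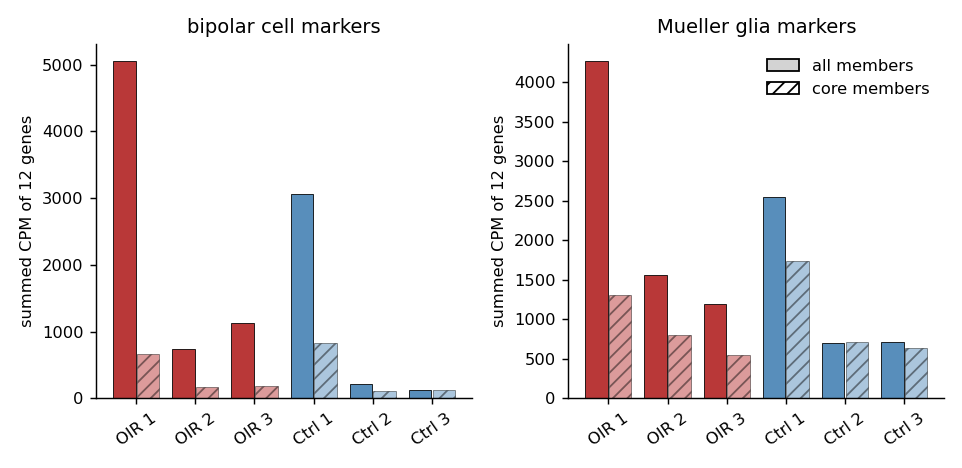
Summed CPM of the 12 bipolar cell markers (left) and the 12 Mueller glia markers (right) in each sample, with plain bars for all members and hatched bars for core members. The plain bars of OIR 1 and Ctrl 1 are the tallest on the left, at 5055 and 3055 CPM, and fall to 666 and 826 CPM in the core.

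The genes that chose the members are given as levels, without a test. Opn1mw stood at 9070, 8329 and 6912 CPM in core members of OIR and at 12152, 8912 and 9659 CPM in Ctrl, a ratio of the means of 0.79. OIR 1 lay above Ctrl 2, so the groups overlapped, while each OIR sample was below the Ctrl sample of its number. Over all members Opn1mw was at 5447, 7669 and 5576 CPM in OIR and 9508, 8699 and 9237 CPM in Ctrl, a ratio of 0.68 with no overlap. In core members Arr3, cone arrestin, was at 1534, 1339 and 1442 CPM in OIR and at 1785, 3028 and 2947 CPM in Ctrl. Its ratio there was 0.56, with every OIR sample below every Ctrl sample, and 0.48 over all members. The other cone genes of the rule had like levels in the groups of the core. Their ratios were 0.98 for Gnat2, 1.09 for Pde6c, 1.13 for Pde6h, 0.93 for Gngt2 and 0.88 for Kcne2, the channel subunit gene used as a cone marker. Over all members these ratios were 0.84, 0.94, 0.95, 0.80 and 0.77 in the same order. Opn1sw, the minor opsin of these cells, had a ratio of 0.95 in the core and 0.84 over all members. The same order appeared in core S-opsin dominant cones, where Opn1mw was the minor opsin. Its level there was 2923, 3441 and 2116 CPM in OIR and 5520, 4787 and 4045 CPM in Ctrl, a ratio of 0.59, and their Arr3 had a ratio of 0.54. Of the core members, 469 also held Opn1sw UMIs and 413 held none.

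The share of M-opsin dominant cones addressed whether the opsin classes were recovered in different proportions after OIR. Of all cells kept, members were 4.49%, 1.47% and 0.95% in OIR and 9.05%, 1.79% and 0.755% in Ctrl, which overlapped (two-sided exact permutation test, p = 0.7). The difference of the means, -1.56 percentage points, turned to 1.03 without Ctrl 1. In dissociated tissue, fewer cells of a class and fewer transcripts of its opsin per cell cannot be told apart here, since the opsin UMIs set the class. Among cells with at least 3 cone genes, members were 25.7%, 36.3% and 29.3% in OIR (mean 30.5% ± 5.39, SD, n = 3) and 45.6%, 49.7% and 50.5% in Ctrl (48.6% ± 2.65). Every OIR sample lay below every Ctrl sample, and the exact permutation p of 0.1 is the smallest that 3 against 3 can give. The cells with at least 3 cone genes included 365, 24 and 35 without an opsin UMI in OIR and 301, 9 and 8 in Ctrl. Over all samples those had a median of 1 UMI of Pde6h and 0 of Arr3.

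Among the M- and S-opsin dominant cones together, the M-opsin class held 39.2%, 40.7% and 34.3% in OIR and 57.8%, 52.2% and 54.6% in Ctrl, a difference of -16.8 percentage points. The 95% Clopper-Pearson intervals, which cover counting error only, reached from 27.9% to 47.9% over the OIR samples and from 44.2% to 64.8% over the Ctrl samples. The S-opsin class also held cells with few opsin UMIs. At least 10 Opn1sw UMIs were found in 50.1%, 91.5% and 88.2% of it in OIR and 77.1%, 97.7% and 93.2% in Ctrl. Core members of each class, with at least 10 UMIs of the leading opsin, gave 41.2%, 38.6% and 29.4% in OIR and 57%, 51.1% and 51.8% in Ctrl. Thinning every cell to 1000 UMIs gave 40.9%, 39.4% and 34.3% against 58.5%, 51.4% and 52.8%. The groups did not overlap in any of these denominators. Since the rule reads the opsin UMIs, a lower Opn1mw level per cell would itself move cells from the M- to the S-opsin class.

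**Figure D3:**
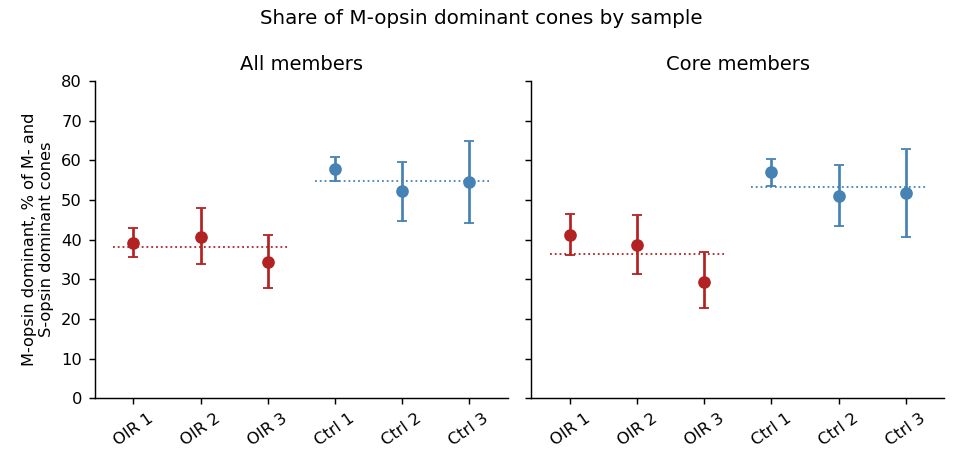
Percent of M-opsin dominant cones among M- and S-opsin dominant cones in each sample, for all members (left) and core members (right), with 95% Clopper-Pearson intervals and dotted lines at the group means. The OIR samples lie between 34.3% and 40.7% on the left and between 29.4% and 41.2% on the right, below the Ctrl samples.

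OIR and Ctrl were then compared across genes on UMIs summed over the members of each sample. With all members, 7947 genes were tested by edgeR's quasi-likelihood test with Benjamini-Hochberg adjustment, and a gene was called where its adjusted p was under 0.05 and its log2 fold change reached 0.25 in either direction. None was called higher or lower (0.0% of the genes tested in each direction), with the lowest adjusted p at 0.128 and 441 genes at an unadjusted p under 0.05. DESeq2 called 6 higher and 9 lower. Samples with the same replicate number deviated together, and when that number was fitted as a block 70 genes were called higher (0.881%) and 35 lower (0.44%). The blocked calls included the bipolar markers Pcp2, Trpm1 and Grm6 and the glial markers Apoe, Vim, Slc1a3 and Crym, whose sums are given above.

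In core members, 7555 genes were tested and 27 were called higher (0.357%) and 18 lower (0.238%) in OIR. The values of 43 of these 45 genes did not overlap between the groups, from which nothing is read since a call favours such genes. Of all genes tested, 9.64% had every OIR sample above and 4.71% every OIR sample below the Ctrl samples. With the replicate block 49 were higher (0.649%) and 37 lower (0.49%), the 45 included, while same-numbered core sums correlated at 0.223, 0.0697 and 0.0902 in their deviations. With a term for sex, which sets the OIR samples against Ctrl 1 alone, 31 were higher and 25 lower, of which 29 were among the 45. The named genes that lost their call with the sex term were Atp2b1 (adjusted p = 0.0532 by edgeR), Atp13a2, Cit and Tuba4a of those higher and Dgkd, Rabgef1, Wwc1, Pcdh15 and AC146911.1 of those lower in OIR. Markers of other cells were also among the core calls. Spc25, a kinetochore gene on the list of Mueller glia markers, was at 11.7, 10.2 and 4.81 CPM in OIR and 43.9, 24.4 and 15 CPM in Ctrl (log2 fold change -1.79, adjusted p = 0.0351 by edgeR). Of the 9 Mueller glia markers tested, 3 were positive and 6 negative (median -0.46), and of 7 bipolar markers 1 was positive and 6 negative (median -0.20). With the sex term Spc25, Glul and Apoe of the glial and Gng13 and Trnp1 of the bipolar markers were called lower, and with the block Spc25, Apoe and Gng13. The part of RNA from these cells in the other calls was not tested. The counts of higher and lower calls moved with single libraries. They were 9 and 4 without OIR 1, 2 and 0 without OIR 2, 4 and 1 without OIR 3, 69 and 56 without Ctrl 1, 8 and 3 without Ctrl 2, and 12 and 10 without Ctrl 3.

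Hmgb2, a chromatin protein that bends DNA (chromosome 8, 57511907 to 57515999, mm10), had the lowest adjusted p of the genes that rose in core members. Its levels were 193, 286 and 351 CPM in OIR and 97.9, 87.2 and 65.9 CPM in Ctrl, a log2 fold change of 1.55 ± 0.20 (SE) with an adjusted p of 0.000831 by edgeR. The lowest OIR sample was above the highest Ctrl sample, since the named genes of this comparison were chosen with groups that did not overlap. Hmgb2 was also called in core S-opsin dominant cones (log2 fold change 1.30), and rods held 271, 308 and 392 CPM in OIR and 138, 159 and 156 CPM in Ctrl.

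Atp2b1, a plasma membrane calcium pump, was the most abundant of the named genes that rose, at 1439, 1320 and 1706 CPM in OIR and 773, 696 and 776 CPM in Ctrl (log2 fold change 0.92 ± 0.16, adjusted p = 0.0106 by edgeR). Ptprn, a protein of dense-core vesicles, stood at 130, 103 and 108 CPM in OIR and 52.9, 46.5 and 29.9 CPM in Ctrl (log2 fold change 1.23). Nbl1, a secreted antagonist of bone morphogenetic proteins, was at 161, 205 and 111 CPM in OIR and 81.2, 57 and 44.9 CPM in Ctrl (log2 fold change 1.21). In each of these the groups were apart, as the choice of named genes required. Fabp7, a fatty acid binding protein best known from glia, was at 166, 84.2 and 135 CPM in OIR and 60, 44.2 and 56.9 CPM in Ctrl (log2 fold change 1.205), and its OIR values varied by library. Its relative Fabp5 also rose, by a log2 fold change of 0.78. Col17a1, a transmembrane collagen, rested on fewer transcripts, 124 UMIs in all OIR samples and 79 in Ctrl. Its levels were 30.2, 81.3 and 76.9 CPM in OIR and 14.2, 26.7 and 18 CPM in Ctrl, with a log2 fold change of 1.63, and OIR 1 lay close to Ctrl 2. Tuba4a, an alpha-tubulin, Bcl7c, a subunit of the SWI/SNF chromatin remodelling complex, Atp13a2, a lysosomal transporter of polyamines, Coq10b, a coenzyme Q binding protein of mitochondria, Cit, the citron kinase, and Riiad1 rose with log2 fold changes of 0.78 to 1.02. Drd4, the dopamine receptor of photoreceptors, was among the other calls, at 1570, 1567 and 1106 CPM in OIR and 972, 462 and 422 CPM in Ctrl (log2 fold change 1.10 ± 0.24, adjusted p = 0.0366 by edgeR, and 0.48 with an adjusted p of 0.657 with the sex term). Ctrl 1 was the nearest of the Ctrl samples to OIR 3.

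Among the genes that fell, Dbp, a transcription factor under the circadian clock, was at 109, 142 and 120 CPM in OIR and 263, 202 and 240 CPM in Ctrl (log2 fold change -1.004, adjusted p = 0.00934 by edgeR), and the time of day at dissection is not given in the labels. Apela, a peptide ligand of the apelin receptor, was at 21, 33.4 and 24 CPM in OIR and 56.9, 80.3 and 98.8 CPM in Ctrl (log2 fold change -1.55). The groups were apart for Dbp and for Apela, as the choice of named genes required. Mapk4 and Dgkd, an atypical MAP kinase and a diacylglycerol kinase, fell with log2 fold changes of -1.45 and -1.18, that of Dgkd being -0.71 with the sex term (adjusted p = 0.151 by edgeR). Ehd4 and Rabgef1, which act in endosomal traffic, fell by 0.80 and 1.06 on the log2 scale. Wwc1, a scaffold of the Hippo pathway, had -0.94. Pcdh15, a cadherin of photoreceptors and of the tip links of hair cells, was at 280, 267 and 245 CPM in OIR and 414, 454 and 377 CPM in Ctrl (log2 fold change -0.71). Gzmm, a serine protease gene of the granzyme family, was at 345, 241 and 300.4 CPM in OIR and 599, 442 and 485 CPM in Ctrl (log2 fold change -0.84). AC146911.1, annotated as antisense to Tbc1d22a, had a log2 fold change of -0.81, and of -0.49 with the sex term (adjusted p = 0.511 by edgeR). The remaining named gene that fell was 0610009B22Rik, at -1.10.

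**Figure D4:**
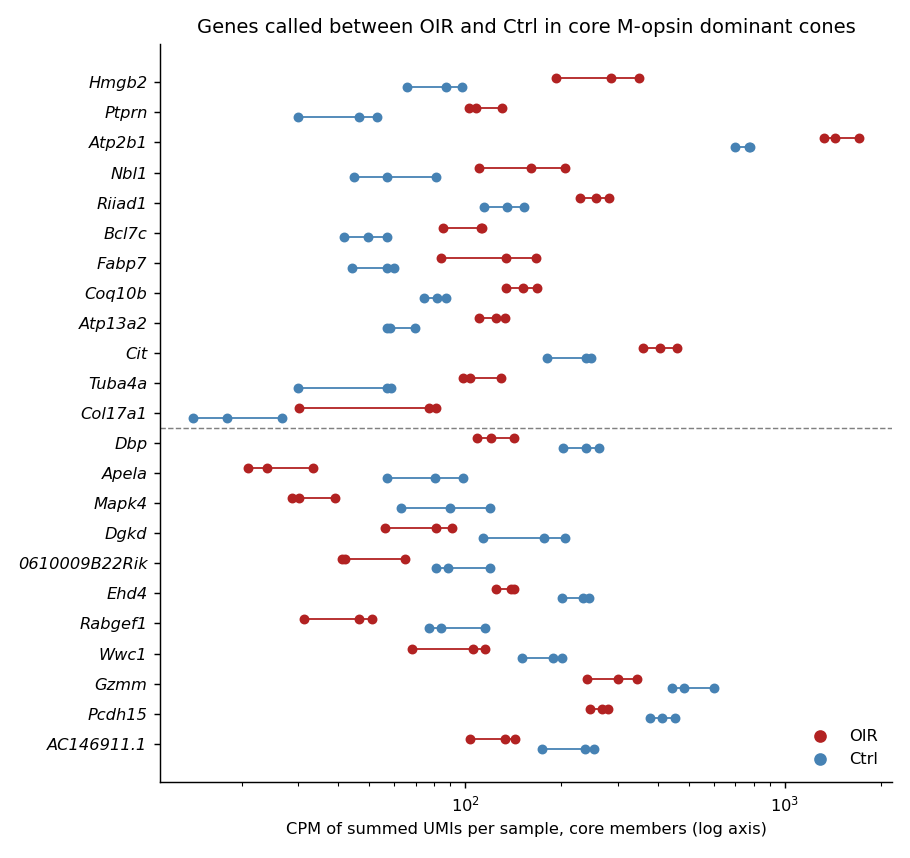
CPM on a log axis of named genes in core members, each point a sample, with OIR in red above Ctrl in blue for each gene and a line spanning the 3 samples. The genes above the dashed line were higher in OIR and those below it lower, with Hmgb2 from 193 to 351 CPM in OIR against 65.9 to 97.9 CPM in Ctrl.

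Cone phototransduction genes that the rule did not use had no call in either fit without the block. Of the 12 tested, 3 had a positive and 9 a negative log2 fold change in core members, with a median of -0.19, where the median of all genes tested was -0.00225. Cngb3, the beta subunit of the cone cyclic nucleotide-gated channel, had 225, 248 and 231 CPM in OIR and 336, 345 and 282 CPM in Ctrl (log2 fold change -0.53, adjusted p = 0.163 by edgeR). The groups did not overlap for Cngb3, and with all members it was called under the replicate block. Gnb3 and Pdc, the cone transducin beta subunit and phosducin, had log2 fold changes of -0.37 and -0.39 with no call. Sag, the arrestin that rods and mouse cones share, was on the list of rod markers and fell in core members. Its levels were 4147, 5012 and 3716 CPM in OIR and 7198, 7214 and 6808 CPM in Ctrl (log2 fold change -0.79 ± 0.18, adjusted p = 0.0405 by edgeR, and 0.117 with the sex term). The summed rod markers of the same cells are given above, and the part of rod RNA in the Sag value was not tested. Of the 13 rod markers tested, 5 were positive and 8 negative (median -0.17) and Sag alone was called. With the sex term 10 were positive and 3 negative (median 0.21), Sag lost its call, and Nr2e3, a rod fate factor, was called higher (log2 fold change 1.25).

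Factors that set cone fate and opsin choice were not called between OIR and Ctrl. Of 18 tested in core members, 14 were positive and 4 negative, with a median of 0.08. Thrb had a log2 fold change of 0.06 ± 0.19 and Rxrg of 0.07 ± 0.20 (adjusted p = 0.983 for each by edgeR). Tbx2, a factor of short-wavelength cones in other vertebrates, was at 13.4, 16 and 16.8 CPM in OIR and 7.64, 4.65 and 5.99 CPM in Ctrl (log2 fold change 1.09, adjusted p = 0.426). The groups did not overlap for Tbx2, but it was not called.

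Outer segment, cilium and visual cycle genes had 6 positive and 14 negative log2 fold changes of 20 tested in core members, with a median of -0.06. None was called without the replicate block, and with it 1 was called lower in core members. Nxnl1, the rod-derived cone viability factor, was at 85.5, 78.4 and 84.1 CPM in OIR and 113, 144 and 156 CPM in Ctrl (log2 fold change -0.74, adjusted p = 0.0779 by edgeR), with no overlap, and was called lower with the block over all members. Cone synapse genes had 8 positive and 11 negative of 19, with a median of -0.02 and no call, Elfn2 having the lowest p (log2 fold change 0.77, adjusted p = 0.452).

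Hypoxia and glycolysis genes depended on which members were summed. Over all members, 15 of 17 hypoxia genes tested had a positive log2 fold change, with a median of 0.36, and in core members 8 of 17 did, with a median of -0.02. The sums of all members held 5055, 748 and 1130 CPM of bipolar markers in OIR and 3055, 211 and 122 CPM in Ctrl. The part of RNA from bipolar cells in the hypoxia values was not tested. With the replicate block Ndufa4l2, Bnip3 and Cox4i2 were called higher over all members. In core members Ndufa4l2, a hypoxia-induced relative of a cytochrome c oxidase subunit, was the hypoxia gene called. It held 60, 17 and 6 UMIs in OIR and 13, 1 and 0 in Ctrl, which is 50.3, 24.7 and 14.4 CPM against 3.68, 1.16 and 0 CPM (log2 fold change 3.47 ± 0.52, adjusted p = 0.00351 by edgeR). Bnip3, a mitophagy receptor induced by hypoxia, showed 34.4, 29 and 31.2 CPM in OIR and 31.7, 24.4 and 38.9 CPM in Ctrl, with the groups overlapping. Of 19 glycolysis and lactate genes, 11 were positive over all members (median 0.06), and in core members 3 were positive and 16 negative (median -0.24). Hk2, the hexokinase that starts glycolysis in photoreceptors, was at 299, 348 and 257 CPM in OIR and 361, 520 and 485 CPM in Ctrl of the core (log2 fold change -0.64, adjusted p = 0.117 by edgeR). With the block over all members Hk2 was called lower and Pfkp, a phosphofructokinase, higher. In core members the block called 1 glycolysis gene lower and 0 higher.

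Genes of the mitochondrial genome and of cytosolic ribosomes each leaned in a single direction, with no call unless the replicate block was fitted. All 13 mitochondrial genes had negative log2 fold changes in core members, with a median of -0.38, and their sum was 100702, 63170 and 62404 CPM in OIR and 111191, 72968 and 81936 CPM in Ctrl. OIR 1 was above Ctrl 2 and Ctrl 3, so the groups overlapped, while each OIR sample was below the Ctrl sample of its number. The replicate 1 libraries were the highest of each group. The gene mt-Nd4l, which overlaps mt-Nd4 on the same strand, at 261, 190.1 and 219 CPM in OIR and 336, 336 and 377 CPM in Ctrl, had the lowest p of the list (log2 fold change -0.68, adjusted p = 0.0791 by edgeR). With the block, mt-Nd4l, mt-Cytb, mt-Nd2 and mt-Nd4 were called lower over all members, and mt-Nd4l in the core. Nuclear genes of oxidative phosphorylation had 36 positive and 49 negative of 85, with a median of -0.03, but 62 positive and 23 negative with the sex term (median 0.08). Of 83 ribosomal protein genes tested, 69 were positive and 14 negative, with a median of 0.12, and their sum was 59876, 64431 and 57910 CPM in OIR against 51978, 53519 and 53996 CPM in Ctrl. Rpl17 was the ribosomal gene called with the block, higher over all members and in the core.

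Stress and immune genes gave 1 call in core members without the block or the sex term. Of 24 stress and early response genes 10 were positive and 14 negative (median -0.07), and the immediate early gene Fos had 385, 522 and 464 CPM in OIR and 848, 676 and 416 CPM in Ctrl with no call. With the sex term 7 were positive and 17 negative (median -0.12), and Fos (log2 fold change -0.97) and Mt1, a metallothionein (-1.48), were called lower. Over all members the block called Mt1 and Mt2 higher, so the direction of Mt1 depended on the members and the fit. Of 8 interferon and antigen presentation genes tested, 3 were positive and 5 negative. Irf7, a transcription factor of the interferon response, rose, at 47.8, 62.4 and 21.6 CPM in OIR and 19.5, 6.98 and 8.98 CPM in Ctrl (log2 fold change 1.57 ± 0.35, adjusted p = 0.0425 by edgeR, and 0.117 with the sex term). OIR 3 and Ctrl 1 were close for Irf7, with 9 and 69 UMIs. Irf7 and Psme1, a proteasome activator subunit, were called higher with the block over all members. Of the genes of inflammasomes and cell death, 4 passed the filter on low counts, each with a positive log2 fold change and no call. They included Gsdme (450.3, 369 and 428 CPM in OIR, 256, 358 and 305 CPM in Ctrl) and Dab2ip, which encodes the protein the study calls AIP1 (21.8, 46.4 and 21.6 CPM in OIR, 29.7, 15.1 and 2.99 CPM in Ctrl, adjusted p = 0.869). The values of Dab2ip overlapped between the groups.

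M-opsin and S-opsin dominant cones came from the same 6 libraries and were compared with the sample as a block, leaving out the 8 genes of the rule. Of 8216 genes tested, 109 were higher (1.33%) and 134 lower (1.63%) in M-opsin dominant cones. In core members of each class 166 of 7946 were higher (2.09%) and 186 lower (2.34%), and 232 of the 243 genes called with all members were called there too. Smug1, a glycosylase that removes uracil from DNA, averaged 156 CPM in M-opsin against 30.7 CPM in S-opsin dominant cones over the 6 samples (log2 fold change 2.13 ± 0.11, adjusted p = 1.47e-14 by edgeR). Its lowest M-opsin value, 94 CPM in OIR 1, was above its highest S-opsin value, 45.4 CPM in Ctrl 2. Leaving out Ctrl 2 gave 71 higher genes in place of 109.

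Factors of opsin patterning were called in both directions. Nr2f2, an orphan nuclear receptor, was at 28.2, 37.2 and 53.1 CPM in M-opsin dominant cones of OIR and 40, 44.2 and 42.6 CPM in those of Ctrl. In S-opsin dominant cones it was at 17.2, 4.19 and 8.38 CPM in OIR and 7.48, 2.39 and 6.8 CPM in Ctrl (log2 fold change 1.96 ± 0.23, adjusted p = 4.69e-07 by edgeR). The classes did not overlap. Gm44532, a long noncoding RNA 54179 bases from Nr2f2 on chromosome 7 with 1 gene between, averaged 58.6 CPM against 3.57 CPM (log2 fold change 3.61 ± 0.20). Thrb was higher by a smaller step, with 254, 769, 456, 380, 535 and 574 CPM in M-opsin dominant cones of OIR 1 to 3 and Ctrl 1 to 3 against 195, 511, 369, 321, 440 and 316 CPM in S-opsin dominant cones (log2 fold change 0.36 ± 0.06, adjusted p = 0.0003). Thrb varied more between libraries than between classes, and was higher in the M-opsin class in each of the 6 libraries. Rxrg was lower, with a log2 fold change of -0.38 ± 0.10. Of 18 factors tested, 2 were called higher, Thrb and Nr2f2, and 2 lower, Rxrg and Ccdc136.

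Ccdc136 (chromosome 6, 29396309 to 29426994, mm10) lies 7840 bases from Opn1sw with no gene between. It was at 239, 288, 241, 214, 211 and 219 CPM in M-opsin dominant cones and at 1006, 1693, 1642, 1169, 1315 and 1166 CPM in S-opsin dominant cones of OIR 1 to 3 and Ctrl 1 to 3, the lowest p of the comparison (log2 fold change -2.49 ± 0.07, adjusted p = 5.25e-22 by edgeR). Every library showed this difference. Also lower were Socs3, a suppressor of cytokine signalling (11.6 against 85.8 CPM, log2 fold change -2.27), Syndig1l (83.1 against 288 CPM, -1.87) and Rtl8a (-0.997). Lgr5, a receptor for R-spondins, had -1.46 and A930009A15Rik, which lies inside it on the opposite strand, -2.43. Guca1a and Gnb3, the guanylate cyclase activator and the cone transducin beta subunit, were lower by log2 fold changes of -0.61 and -0.48, and with Grk1, a photoreceptor opsin kinase, they were the phototransduction genes called of 13 tested. Kpna2, a nuclear import receptor, was higher (198 against 81.2 CPM, log2 fold change 1.21), as were Mgst3, a microsomal glutathione transferase (439 against 218 CPM, 0.94), Ppa1, inorganic pyrophosphatase (0.70), and Rd3l (0.46). Gzmm (351 against 175 CPM, log2 fold change 0.89) and AC146911.1 (1.13) were higher in M-opsin dominant cones, and were also among the genes called lower in OIR in the core, AC146911.1 not with the sex term. The outer segment genes Cdhr1, Rp1l1 and Mpp4 and the glycolysis genes Ldhb, Pfkp and Aldoc were also called higher. Markers of other cells moved with the classes as well. Of 12 Mueller glia markers tested over all members, 11 were higher in M-opsin dominant cones (median log2 fold change 0.30), with Clu and Vim called, and in core members 6 of 8 were higher (median 0.14) with no call. Of 13 rod markers 12 were lower in each fit (medians of -0.16 over all members and -0.20 in the core), with Sag, Cnga1 and Reep6 called lower and Samd7 (log2 fold change 0.94) called higher in both. Of 10 bipolar markers 4 were higher and 6 lower over all members, with Cabp5 (-0.77) and Prkca called lower, and Cabp5 was called lower in the core too. The part of RNA from these cells in the differences between M- and S-opsin dominant cones was not tested.

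**Figure D5:**
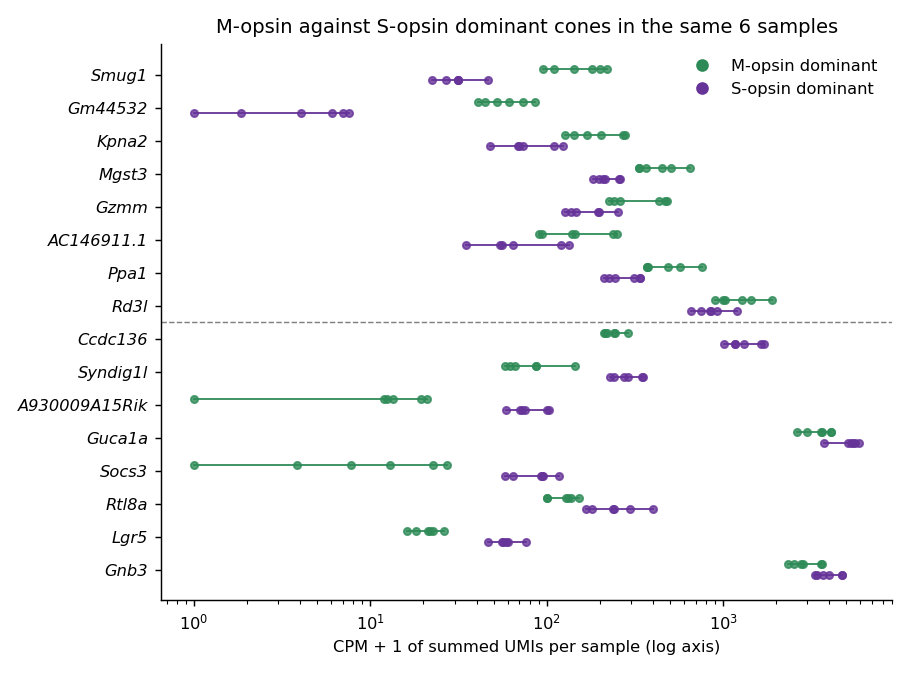
CPM + 1 on a log axis of the 16 named genes in M-opsin (green) and S-opsin (purple) dominant cones, each point 1 of the 6 samples. The 8 genes above the dashed line were higher in M-opsin dominant cones and the 8 below it lower, with Ccdc136 near 235 CPM against 1332 CPM on average.

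Among core members the 413 cells without Opn1sw and the 469 with it were set beside the 930 core S-opsin dominant cones, without a test. For 14 of the 16 named genes the mean level of cells with Opn1sw lay between those of the other classes, as it did for 38.1% of the 7946 genes tested between the core classes. The 16 had been chosen for their difference between M- and S-opsin dominant cones, so the order of the outer classes was given. A wide gap between the outer classes also favours a level in between. The share over all genes, which were not chosen for such a gap, is thus not a like measure, and nothing is read from it. Ccdc136 averaged 48, 352 and 1496 CPM in cells without Opn1sw, with Opn1sw and dominated by it. Socs3 averaged 4.44, 11.8 and 98.9 CPM and Gm44532 81.3, 56.4 and 2.90 CPM in the same order, and Smug1 191, 164 and 31.1 CPM. The exceptions were AC146911.1 (168, 181 and 80.2 CPM) and Rd3l (1297, 1546 and 969 CPM).

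Whether the response to OIR differed between classes was tested as an interaction. Of 9186 genes, 1 was higher (0.0109%) and 5 were lower (0.0544%) in the effect of M-opsin minus that of S-opsin dominant cones, and 347 had an unadjusted p under 0.05. Cartpt was the higher gene and Igfbp7, Ctla2a, Col4a1, Cldn5 and Gm4792 the lower ones. Without Ctrl 1 the 6 calls became 1, without Ctrl 2 they became 3, without OIR 1 25 and without OIR 3 11. Against rods, 0.0% of 13832 genes were higher and 1 gene, Gzmm, was lower (0.00723%). At an unadjusted p under 0.05, 489 were positive and 164 negative, and in core members 256 and 255. Gzmm stood at 223, 239 and 260 CPM in M-opsin dominant cones of OIR and 482, 434 and 466 CPM in those of Ctrl, while rods held 35.5, 74 and 65 CPM in OIR and 34.3, 15.8 and 16.3 CPM in Ctrl (difference of log2 effects -2.27 ± 0.29, adjusted p = 0.0401 by edgeR). The OIR and Ctrl samples were apart for Gzmm in M-opsin dominant cones and the OIR samples held the higher values in rods. That call was lost without OIR 2, OIR 3, Ctrl 2 or Ctrl 3, and 6 and 231 genes were called without OIR 1 and Ctrl 1. It was also lost in core members, where no gene was called against rods (lowest adjusted p = 0.135 by edgeR).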

How the data were processed

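Retinal single-cell libraries (10x 3' version 3 chemistry) of 3 OIR and 3 Ctrl samples were used. The authors deposited raw UMI counts per gene and barcode for 31053 genes, without normalization, and 3.1.0 is the software version in the matrix headers. Per the written methods the counting used default settings, which for 3' libraries count reads on the strand of the gene. The labels name mm10, while the written methods name another build. Cells were filtered as in the study. The members and gene lists were chosen with earlier results of these data known. Each sample is a separate pool, and p-values measure the spread between these pools.

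Counts were summed per sample and class and tested by the quasi-likelihood method of edgeR 4.0.16 in R 4.3.3 (TMM scaling, genes kept by filterByExpr, Benjamini-Hochberg adjustment), with DESeq2 1.42.0 as an alternative. Shares were tested with SciPy 1.17.1. Doublets were called with Scrublet in scanpy 1.11.5, marked 151 members and were kept. Gene positions come from an mm10 annotation. The named genes were, in each direction, the 12 (OIR against Ctrl) or 8 (M against S) called genes of lowest p with a mean of at least 50 CPM in a group, the 4 called genes of lowest p for each interaction, and up to 4 of lowest p for each list, leaving out rule, sex-linked and mitochondrial genes and markers of other cells except within their lists. For OIR against Ctrl the groups also could not overlap, and the rule was applied to the core members since the sums of all members had no call. Some genes that this rule names are not reported here. Genes named beside these were chosen after their values were seen. Deviations from the group means of same-numbered samples correlated at 0.589, 0.274 and 0.143 over the sums of all members, each above 0.1, so the numbers were taken to pair those sums. The unlike-numbered OIR 2 and Ctrl 3 correlated at 0.250 and OIR 3 and Ctrl 2 at 0.129. Core sums gave 0.223, 0.0697 and 0.0902. On simulated counts with 200 genes changed 2-fold, 19.5% were recovered over 7947 genes for all members, 64.5% over 7555 for core members and 97.5% over 8216 for M against S. Of the calls made there, 15.2%, 5.84% and 5.80% were false in that order. Alternatives were another normalization, filters, member rules, thinning, left-out samples, a sex term and the replicate block.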

Additional observations from a re-analysis of the deposited data

Results flagged for a closer look

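Of the genes called by the interaction tests, the 5 named ones are flagged here. Cldn5 and Gm4792, also called against S-opsin dominant cones, were not among them. For Cartpt the difference of the log2 effects against S-opsin dominant cones was 4.73, and it rested on Ctrl 1, where S-opsin dominant cones held 763 UMIs while the other 5 samples held 1 to 23. M-opsin dominant cones held 6, 7 and 8 UMIs in OIR and 28, 0 and 2 in Ctrl. For Igfbp7 the difference was -2.59, with 386 UMIs in M-opsin dominant cones of Ctrl 1 and 26 in OIR 1, and 182 and 226 in S-opsin dominant cones, and it was 0.18 in core members. For Ctla2a it was -4.92, with 111 UMIs in M-opsin dominant cones of Ctrl 1, 2 in OIR 1 and 0 in the other samples, and 74 and 103 in S-opsin dominant cones of Ctrl 1 and OIR 1 and 0 in the others. For Col4a1 it was -2.61, with 16, 1 and 0 UMIs in OIR and 164, 3 and 1 in Ctrl, and 68, 1 and 1 and 47, 2 and 0 in S-opsin dominant cones. The values of Igfbp7, Ctla2a and Col4a1 thus rested mostly on the replicate 1 libraries in both classes. For Gzmm the difference against rods was -2.27. The part of cells of the vessel wall in the Igfbp7, Ctla2a and Col4a1 values was not tested, and Cldn5 had a UMI in 22 members of Ctrl 1, 4 of OIR 1 and 0 of the other samples.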

How the results depend on the processing

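With all members, edgeR called 0 genes higher and 0 lower in OIR, and DESeq2 called 6 and 9, no filter on low counts 4 and 9, at least 4 cone genes 1 and 1, a stricter opsin rule 1 and 1, at least 5 Opn1mw UMIs 17 and 12, at least 10 (core) 27 and 18, at least 20 30 and 23, replicates 2 and 3 alone 82 and 49, and the replicate block 70 and 35. Leaving out 1 sample gave 0 to 11 higher and 0 to 9 lower. In core members the 27 and 18 calls became 49 and 37 with the replicate block, 60 and 49 with replicates 2 and 3 alone, 66 and 61 with no filter, and 2 to 69 and 0 to 56 without 1 sample, while at least 5 Opn1mw UMIs gave 17 higher and DESeq2 16 higher. Of 24 named core genes, 22 lost their call without OIR 2, 20 without OIR 3, 18 without OIR 1 or Ctrl 2 and 11 without Ctrl 3. With a sex term 9 lost it and with the replicate block 0. None changed sign in these, from which nothing is read, since the genes were chosen with groups that did not overlap. For M against S, the 109 higher and 134 lower calls became 34 and 69 with DESeq2, 197 and 230 with a stricter opsin rule, and 17 and 27 after thinning, with 166 higher in core members and 71 to 109 higher and 96 to 133 lower without 1 sample. The named genes of that comparison kept their calls in all 171 refits that tested them, and refits in which a named gene was not tested were not counted. They were the called genes of lowest p, a choice that favours keeping a call. Interactions against S-opsin dominant cones numbered 6, 29 with no filter, 10 in core members and 1 to 25 without 1 sample, and those against rods 1, 5 with no filter, 0 in core members and 0 to 231 without 1 sample. The difference in the share of all cells kept, -1.56 percentage points, ranged from -3.12 to 1.03 without 1 sample and reversed without Ctrl 1. The share of cells with at least 3 cone genes differed by -21.1 to -15.8 points. Log2 fold changes with all members that reversed were those of Cryab (-0.029 to 1.79 without 1 sample, the lower without Ctrl 2, -0.37 with the sex term, -0.011 with 4 cone genes, -0.24 with the stricter opsin rule, -0.50 in the core, -0.13 with 5 and -0.95 with 20 Opn1mw UMIs), Fam162a (-0.10, -0.076 and -0.14 in the core and with 5 and 20 UMIs), Cox4i2 (-0.058 and -0.72 with 5 and 20), Bnip3 (-0.035 with 20) and, with the sex term, Otx2 (-0.00146), Impg1 (0.065) and Dab2ip (-0.16). Of the interactions, Cartpt ranged from -0.13 (without Ctrl 1) to 4.88 without 1 sample and Igfbp7 to 0.18 in core members. The causes were not tested. The core sums of Ctrl 3 and OIR 3 held 44 and 50 cells, the fewest of the 6.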
